A study of Mus musculus with 2 samples.

Results

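Broad open regions at gene ends are stretches of accessible chromatin at least 1000 bp wide that lie within 1 kb of the first or last base of a protein-coding gene. They were picked from an ATAC-seq study of mouse neural retina by their width in the sum of both libraries, and 2143 of 36840 open regions were of this kind. Among the 11123 autosomal open regions at gene ends, they made up 19.3%. Regions under 600 bp at gene ends, called narrow here, numbered 3515 (31.6%) and served for comparison, while 5465 lay between these widths. The libraries came from adult C57BL/6 mice: 1 from a Gabra3 knockout and 1 from a wild-type littermate. Gabra3 lies on the X chromosome and encodes alpha 3, a subunit of GABA-A receptors, which are chloride channels opened by the transmitter GABA. The labels do not say how the allele was made. Each library was prepared from 20000 nuclei of flash-frozen tissue, so every value is an average over all retinal cell types. A larger share of cells with an open region and more openness in each of those cells cannot be told apart.

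In ATAC-seq the Tn5 transposase cuts accessible DNA and inserts adapters there, and the number of insertions in a region measures how open it was. At active promoters, nucleosomes are displaced from the stretch just upstream of the transcription start, and the first nucleosome downstream of it is held in a regular position. Many mammalian promoters, above all those of genes used in most cells, lie in CpG islands. These are stretches rich in G and C in which the CpG dinucleotide, elsewhere depleted by methylation and mutation, is kept. CpG islands are commonly free of DNA methylation and accessible, whereas promoters of genes restricted to a cell type more often lack them.

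The promoters of 7 regions are shown as examples from broad and narrow regions, and they do not span the range of either class. Each is the 250 bases before the transcription start in RefSeq (GRCm38.p6), on the strand of the gene, with every CG dinucleotide in capitals. Nr1d2 and Prph2 were chosen after their values were seen. The first 4 lie at broad regions. Sp3 is at chr2:72980447-72980696 on the minus strand, Nr1d2 at chr14:18239107-18239356 on the minus strand, Zcwpw1 at chr5:137787081-137787330 on the plus strand and Ankmy2 at chr12:36156874-36157123 on the plus strand.
Sp3: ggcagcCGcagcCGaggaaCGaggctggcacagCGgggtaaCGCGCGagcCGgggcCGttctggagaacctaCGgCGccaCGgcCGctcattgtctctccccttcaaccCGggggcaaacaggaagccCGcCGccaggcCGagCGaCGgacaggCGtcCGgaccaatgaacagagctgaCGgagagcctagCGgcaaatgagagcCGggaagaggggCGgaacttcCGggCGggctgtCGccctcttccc
Nr1d2: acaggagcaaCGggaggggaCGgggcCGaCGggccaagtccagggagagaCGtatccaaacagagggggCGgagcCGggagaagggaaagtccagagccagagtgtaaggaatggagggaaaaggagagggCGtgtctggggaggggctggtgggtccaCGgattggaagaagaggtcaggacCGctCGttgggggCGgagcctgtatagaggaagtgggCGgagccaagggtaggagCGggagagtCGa
Zcwpw1: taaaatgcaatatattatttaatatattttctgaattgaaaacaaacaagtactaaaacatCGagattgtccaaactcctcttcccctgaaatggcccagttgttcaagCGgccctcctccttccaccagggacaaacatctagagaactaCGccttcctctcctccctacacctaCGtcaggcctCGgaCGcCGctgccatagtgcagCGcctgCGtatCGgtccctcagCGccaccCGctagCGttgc
Ankmy2: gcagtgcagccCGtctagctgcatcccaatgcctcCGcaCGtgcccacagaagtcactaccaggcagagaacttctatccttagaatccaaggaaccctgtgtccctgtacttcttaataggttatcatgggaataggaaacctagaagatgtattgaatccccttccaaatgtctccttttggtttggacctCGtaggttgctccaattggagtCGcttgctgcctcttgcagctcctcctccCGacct
The other three lie at narrow regions. Sarm1 is at chr11:78497755-78498004 on the minus strand, Eif5b at chr1:37997760-37998009 on the plus strand and Prph2 at chr17:46910228-46910477 on the plus strand.
Sarm1: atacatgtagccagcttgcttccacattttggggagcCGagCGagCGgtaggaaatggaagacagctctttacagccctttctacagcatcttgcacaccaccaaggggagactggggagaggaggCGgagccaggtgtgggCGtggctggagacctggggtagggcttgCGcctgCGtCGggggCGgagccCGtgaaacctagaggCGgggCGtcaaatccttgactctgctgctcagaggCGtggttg
Eif5b: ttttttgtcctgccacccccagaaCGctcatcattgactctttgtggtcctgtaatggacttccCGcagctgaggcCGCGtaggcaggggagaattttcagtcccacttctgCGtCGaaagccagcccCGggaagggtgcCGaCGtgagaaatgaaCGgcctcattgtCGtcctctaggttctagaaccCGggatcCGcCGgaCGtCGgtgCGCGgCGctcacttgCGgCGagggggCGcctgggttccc
Prph2: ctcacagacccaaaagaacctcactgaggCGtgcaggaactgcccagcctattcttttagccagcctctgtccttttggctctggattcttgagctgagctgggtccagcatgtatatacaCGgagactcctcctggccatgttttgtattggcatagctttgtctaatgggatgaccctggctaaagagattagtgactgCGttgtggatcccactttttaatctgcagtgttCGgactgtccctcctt
The stretch of Sp3 held 28 CG dinucleotides, that of Nr1d2 15, that of Zcwpw1 13 and that of Ankmy2 6. At the narrow regions Sarm1 held 13, Eif5b 22 and Prph2 4. The ranges of both classes overlapped in these examples, and the letters alone do not tell them apart. The examples do not stand for their classes. With the first 50 bases from the start included, GC content was 66.7% for Sp3, 65.7% for Nr1d2, 50.3% for Zcwpw1 and 55.0% for Ankmy2. All of these lay below the median of 67.7% for promoters at broad regions.

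The knockout library held 9038110 aligned reads and the wild-type library 9170838. After poorly placed reads and repeats of a position and strand were left out, 7646373 and 7635799 insertions remained in the knockout and wild-type libraries. With 1 library per genotype, each ratio compares those libraries and not the genotypes, and has no replicate check and no p-value. Intervals in parentheses are exact Clopper-Pearson intervals at 95%, which take in counting error and nothing else, unless they are named as quartiles. As a check of the tissue label, an open region lay at an end of 14 of 17 rod, 14 of 15 Müller glia, 8 of 13 bipolar, 7 of 13 ganglion cell, 6 of 12 cone, 4 of 13 amacrine and 2 of 6 horizontal cell markers. Among markers of other cells, 5 of 10 pigment epithelium, 2 of 8 lens, 1 of 8 astrocyte and oligodendrocyte, 1 of 10 microglial and 0 of 9 vascular genes had one, where 11473 of all 20661 autosomal protein-coding genes did.

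The broad regions were 1100 bp wide at the median (quartiles 1050 to 1250 bp), and the widest reached 3200 bp. Because width chose them, their widths and counts are given as a description. A broad region held 159 insertions in the knockout library at the median (quartiles 114 to 209.5) and 160 in the wild-type library (115 to 212). Narrow regions were 350 bp wide and held 15 insertions in each library at the median. Per kb of region, broad regions had 135 knockout and 136.7 wild-type insertions at the median, against 40 in each for narrow regions. Broad regions were thus denser as well as longer, although width and number of insertions are tied by the way regions are called. Over the 11123 gene-end regions, the Pearson correlation of log width with log insertions was 0.90, and within the 2143 broad regions it was 0.35.

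The densest 200 bp of a broad region held 36.2% of its insertions at the median, against 77.6% in a narrow region. A stretch of 200 bp is a smaller part of a wide region, so this contrast follows in part from the choice by width. The central 500 bp of the broad regions held 188 knockout and 191 wild-type insertions per kb. Their flanks held 108 knockout and 109 wild-type insertions per kb. Of the broad regions, 1849 (86.3%) were called as 1 unbroken run of dense windows. The rest were joined from neighbouring runs at most 150 bp apart. Together the broad regions took 358497 of the autosomal insertions of the knockout library (4.80%, 4.78 to 4.81%). They took 363698 in the wild-type library (4.87%, 4.86 to 4.89%). The narrow regions, which were more numerous, took 0.927% of knockout and 0.986% of wild-type insertions.

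Reads that repeat a position and strand were counted once. They made up 28.9% of the reads in broad regions of the knockout library, against 31.0% for wild type. In narrow regions they made up 15.9% and 17.9% in the knockout and wild-type libraries. With all reads kept and regions called again, broad regions took 5.50% of the knockout and 5.64% of the wild-type library. The ratios with all reads kept are given among the alternatives below. What gave rise to the repeats was not tested.

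Broad regions sat at the starts of genes far more than at their ends. The annotation with strand, which covers 17491 of 21883 protein-coding genes, placed a 5′ end within 1 kb of 1742 broad regions (81.3%, 79.6 to 82.9%). Only a 3′ end was near 24 (1.12%), and for 377 (17.6%) the strand of the nearby gene was not listed. Among narrow regions the shares were 61.9% with a 5′ end, 16.6% with a 3′ end alone and 21.5% unlisted. Middle regions were close to broad ones, with 80.9% at a 5′ end, 1.81% at a 3′ end alone and 17.3% unlisted. A transcription start lay inside 1668 broad regions (77.8%), 4204 middle regions (76.9%) and 1268 narrow regions (36.1%). The wider a region, the more likely it is to hold a start by its length alone, and that part was not separated here.

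Around those starts, broad regions reached to both sides. The median reach was 534 bp upstream and 585 bp downstream of the start, against 236.5 bp and 199 bp for narrow regions. In each region the reaches to both sides make up its width, so this contrast between the classes follows from the choice by width. The densest 200 bp centred at -54 bp from the start at the median (quartiles -130.25 and -2 bp), with upstream negative. In 1262 of 1668 regions (75.7%) it lay before the start. In the mean profile the knockout library peaked at 265 insertions per kb and the wild-type library at 274, both 75 bp upstream. Density was at least 0.5 of the peak from 275 bp upstream to 75 bp downstream in both libraries.

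Downstream the profile had a shoulder. In the knockout library density was 128 insertions per kb at 125 bp past the start, 121 at 175 bp and 132 at 225 bp. In the wild-type library it was 128, 119 and 125 at the same positions. At 525 bp upstream and downstream the knockout library still had 64.8 and 63.0 insertions per kb, and the wild-type library 68.9 and 59.7. At narrow regions the values there were 8.49 and 12.6 for knockout, against 10.5 and 13.2 for wild type. Narrow regions reached at most 529 bp upstream and 516 bp downstream, so this contrast too is tied to the choice by width. Beyond 1400 bp the broad profile was down to 9.23 knockout and 9.32 wild-type insertions per kb.

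**Figure D1:**
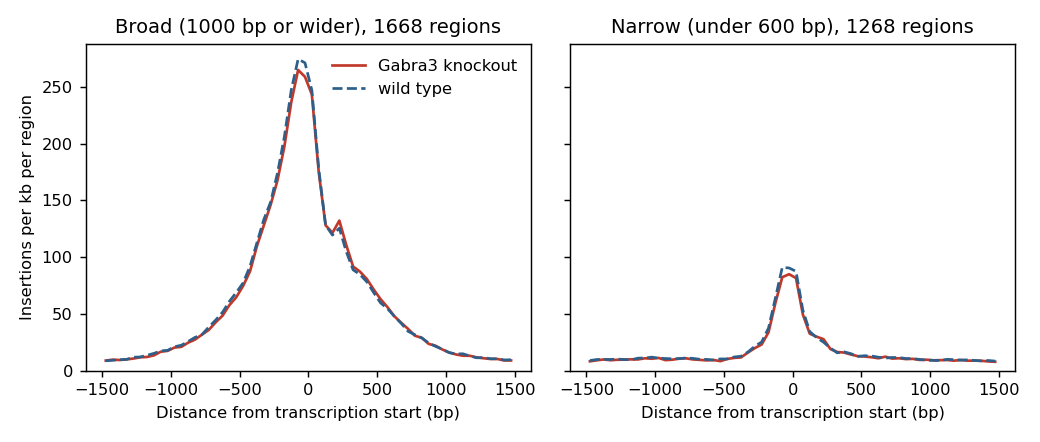
Mean insertions per kb around the transcription starts inside broad and narrow regions (y axis) against distance from the start in bp, with upstream negative, for the knockout and wild-type libraries. The broad profile peaks at 265 knockout and 274 wild-type insertions per kb, and at 525 bp upstream it is still at 64.8 knockout and 68.9 wild-type insertions per kb.

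Some broad regions lay near more than 1 gene end. At least 2 protein-coding gene ends lay within 1 kb of 455 broad regions (21.2%, 19.5 to 23.0%) and of 423 narrow regions (12.0%, 10.98 to 13.2%). Middle regions, with 1026 (18.8%, 17.7 to 19.8%), were closer to the broad ones. Both ends of a short gene are counted, so these are not counts of genes. Starts pointing in opposite directions lay inside 254 broad regions (11.9%), against 402 middle ones (7.36%) and 35 narrow ones (0.996%). A broad region offers more room for a second start. The most ends near a broad region were 4. These regions lay at Psme3ip1 and Rspry1 with LOC115486880, at the histone genes H3c1 and H4c1, and at Yrdc and Mtf1 with 1110065P20Rik. The region at H3c1 and H4c1, 1600 bp wide, held 176 knockout and 185 wild-type insertions.

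The widest region, at Gm20783 and LOC108167694 (chromosome 9, 124422801 to 124426000), spanned 3200 bp and held 663 knockout and 689 wild-type insertions. It was the broad region with most insertions too. Next came Insm1 (chromosome 2, 146221201 to 146223850), which encodes a zinc-finger factor of neuronal and neuroendocrine differentiation, with 289 knockout and 275 wild-type insertions over 2650 bp. Its densest 200 bp held 12.6% of its insertions. No 100 bp of the knockout library held more than 19, and none of the wild-type library more than 22. The region was joined from 3 runs. Called alone, it was 1500 bp wide in the knockout library and 1050 bp in the wild-type library. The regions of Sp3 and Arid1b were 2350 bp wide each. They encode a transcription factor that binds GC boxes and a subunit of the BAF chromatin remodeller.

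Shapes differed among the widest. Sp3 (chromosome 2, 72978651 to 72981000) held 351 knockout and 349 wild-type insertions, in a pair of peaks with a trough between them. In 100 bp steps, the peaks held 42 and 27 knockout insertions, against 43 and 26 wild-type ones. The trough held 2 knockout and 3 wild-type insertions. Arid1b had 233 knockout and 211 wild-type insertions. Others of the 10 widest lay at Csf2ra, Mepce with Zcwpw1, Ankmy2 with Bzw2, LOC102634078 and Ncoa2. They were 2000 to 2300 bp wide. Csf2ra, which encodes a chain of the GM-CSF receptor, held 302 knockout and 354 wild-type insertions.

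The regions with most insertions after the widest one were at Gsk3b, Dnpep, Nr1d2 and Garem1. Gsk3b, the gene of a kinase of Wnt and insulin signalling, had 508 knockout and 533 wild-type insertions over 1700 bp. Dnpep, the gene of an aspartyl aminopeptidase, had 495 knockout and 534 wild-type insertions over 1300 bp, and 52.2% of its reads repeated a position and strand, the highest share of all broad regions. Nr1d2 (REV-ERB beta), a repressor in the circadian clock, had 502 knockout and 514 wild-type insertions over 1600 bp (chromosome 14, 18238101 to 18239700). Garem1, the gene of an adaptor in growth factor signalling, had 472 and 496 in the knockout and wild-type libraries.

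**Figure D2:**
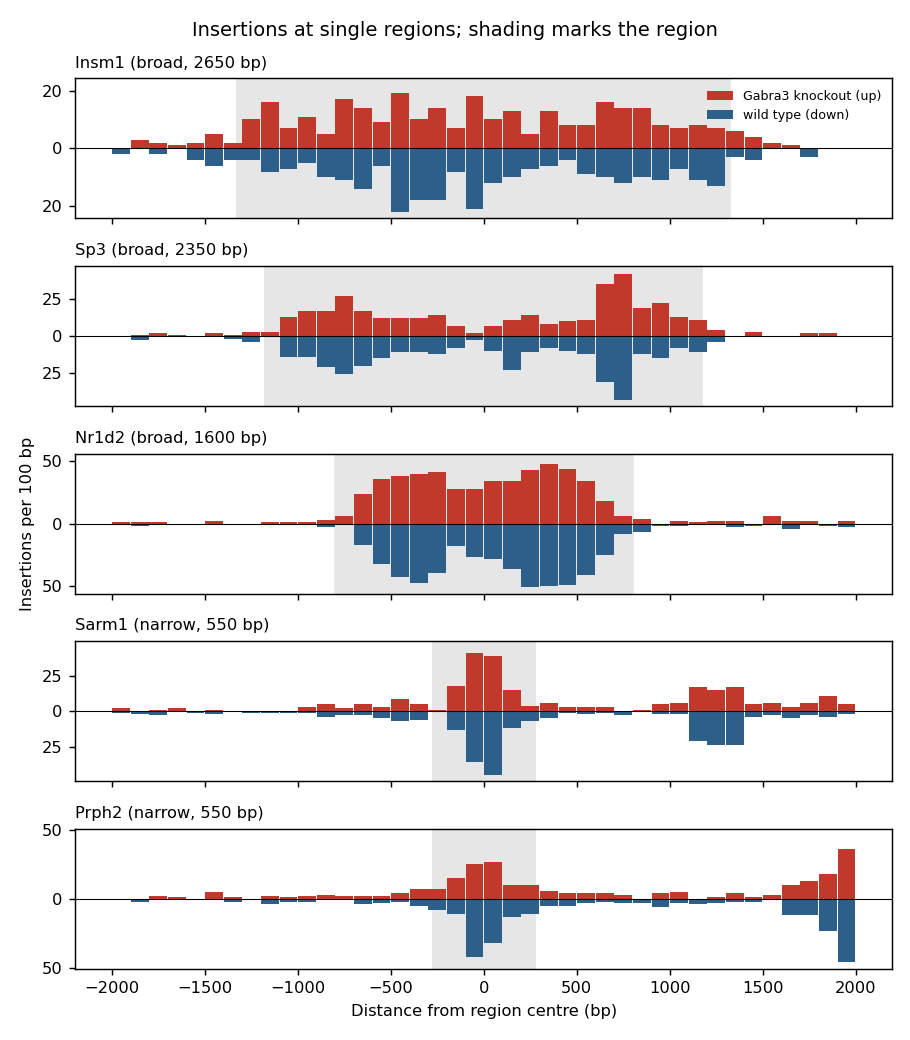
Insertions in 100 bp steps (y axis, knockout upward, wild type downward) against distance from the region's centre in bp at 3 broad and 2 narrow regions, with the region shaded. Sp3 shows a pair of peaks around a trough of 2 knockout and 3 wild-type insertions, and Sarm1 and Prph2 a compact peak within the shading. Further insertions lie outside the shading. At Prph2 there are 36 knockout and 46 wild-type ones at 1950 bp, and at Sarm1 17 and 24 at 1350 bp. Insm1 shows insertions spread over a region joined from 3 runs.

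At the width limit, the fullest regions on either side had similar counts. With 1000 bp, Mxd4 held 271 knockout and 293 wild-type insertions, Ap2a1 with Tsks 259 and 300, and Per2 260 and 292. With 950 bp, Hip1 held 341 knockout and 342 wild-type insertions, Tle4 314 and 323, and Mtmr4 279 and 317. In both libraries, each of the 3 regions just outside the limit held more insertions than each of the 3 just inside. All 6 were picked as the fullest of their width. Among narrow regions, Sarm1, an axon degeneration gene, held 116 knockout and 112 wild-type insertions over 550 bp. Prph2, the gene of a photoreceptor disc rim protein, held 91 and 115.

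The number of broad regions depended on how they were called. It was 6725 when windows were set against the genome mean alone, and 1015 at 0.5 of the pooled depth. Called in each library alone at equal depth, 1049 of the 2143 regions were still at least 1000 bp wide in the knockout library (49.0%, 46.8 to 51.1%). In the wild-type library 944 were (44.1%, 41.9 to 46.2%). Both libraries gave that width for 717 regions (33.5%), and neither did for 867 (40.5%). The call was wider in the knockout library at 980 regions, wider in the wild-type library at 779 and equal at 384. Among narrow regions it was wider in the knockout library at 979 and in the wild-type library at 1309, and among regions away from gene ends at 6018 and 9498. An open region was found in the knockout library alone at 2140 of the 2143 and in the wild-type library alone at 2141. The regions were chosen by their width in the pool, and each library alone is shallower than the pool. Loss of width and little loss of presence thus follow in part from the choice. The narrow regions were found again less often, 2172 of 3515 (61.8%) for knockout and 2313 (65.8%) for wild type. They held 15 insertions in each library at the median, against 159 knockout and 160 wild-type ones in broad regions.

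The promoters of broad regions were rich in CpG. In windows from 250 bp before to 50 bp after the start, the median ratio of observed to expected CpG was 0.88 at broad regions (quartiles 0.755 to 0.988, 1668 promoters). It was 0.81 at middle regions, 0.70 at narrow regions and 0.59 over all 20084 autosomal promoters. For promoters in no open region it was 0.25. A ratio of at least 0.6, a usual limit for CpG islands, was reached by 92.8% of broad promoters (91.5 to 94.0%), by 65.1% of narrow ones and by 48.9% of all. The median GC content was 67.7% at broad regions, against 60% at narrow regions and 57% over all promoters. Among broad regions the ratio was 0.87 at 1000 to 1199 bp (1038 promoters at 1323 regions). It was 0.88 at 1200 to 1499 bp (501 at 649) and 0.92 at 1500 bp and more (129 at 171).

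The classes also differ in number of insertions, so regions of like height were set side by side, a comparison chosen after seeing the data. Like height did not make the number of insertions alike. At 60 to 79 insertions in the densest 200 bp, broad regions held 105 knockout and 106 wild-type insertions at the median. Narrow regions of that height held 46 and 50. CpG and GC values exist only for regions that hold a listed start. With 60 to 79 insertions in their densest 200 bp, 179 of 239 broad regions did, with a median CpG ratio of 0.885 and a GC content of 68.3%. Of 197 narrow regions of that height 123 did, with 0.739 and 57%. With 20 to 39 insertions the CpG ratio was 0.781 at broad regions (59 of 92) and 0.699 at narrow ones (406 of 1182). With 40 to 59 it was 0.827 (119 of 164) and 0.758 (194 of 419). At each of the 3 heights the median CpG ratio was higher at broad than at narrow regions.

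**Figure D3:**
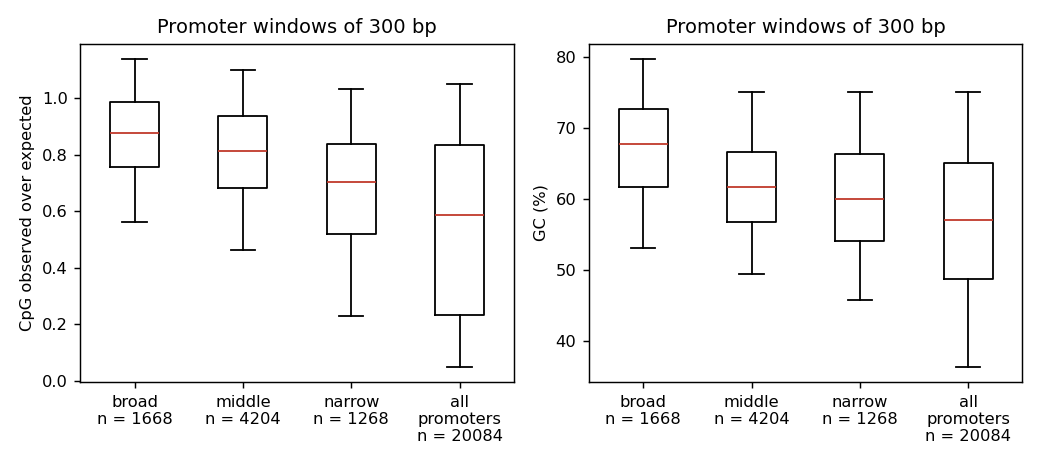
Ratio of observed to expected CpG (left) and GC content in percent (right) of 300 bp promoter windows at broad, middle and narrow regions and over all autosomal promoters, with boxes at the quartiles, red lines at the medians and whiskers at the 5th and 95th percentiles. The median CpG ratio is 0.88 at broad, 0.81 at middle and 0.70 at narrow regions, against 0.59 over all promoters.

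Short motifs were searched in the same windows on both strands, as exact letters. GGGCGG, the GC box bound by the Sp family, was present in 83.2% of broad promoters (81.3 to 85.0%), 70.7% of middle ones, 61.9% of narrow ones and 47.0% of all. TATAAA, a form of the TATA box, was present in 3.84% of broad promoters, 5.85% of middle ones, 8.28% of narrow ones and 12.7% of all. TAATCC, a form of the site of the photoreceptor factor CRX, stood in 3.42% of broad, 5.66% of middle, 5.84% of narrow and 6.41% of all promoters.

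The other motifs were most frequent at middle regions. CCAAT, bound by NF-Y, stood in 38.6% of broad, 42.2% of middle, 39.8% of narrow and 38.1% of all promoters. The E-box CACGTG stood in 10.0% of broad, 12.1% of middle and 10.1% of narrow promoters, against 7.89% of all. The palindromic site of NRF1, a regulator of nuclear genes for mitochondria, stood in 2.70% of broad, 2.93% of middle, 1.03% of narrow and 1.34% of all promoters. CCGGAAGT, an ETS motif, stood in 6.41% of broad, 12.2% of middle, 5.44% of narrow and 5.28% of all promoters. The site of the zinc-finger factor YY1 stood in 1.98% of broad, 2.33% of middle, 0.394% of narrow and 0.896% of all promoters. TGACGTCA, the cyclic AMP response element, stood in 3.42% of broad, 4.64% of middle, 2.92% of narrow and 2.30% of all promoters. Motifs made of G and C are more frequent by composition alone in windows of high GC content. Those made mostly of A and T, such as TATAAA and TAATCC, are less frequent there by composition alone. Neither part was separated. The stretches printed above held GGGCGG 2 times for Sp3, 3 times for Nr1d2 and 1 time for Sarm1, and not for the others.

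By gene, 2582 of 20661 autosomal protein-coding genes, or 12.5%, had a broad region within 1 kb of an end. Among the 11473 genes with any open region there, this was 22.5%. The gene lists were chosen with earlier results of these data known, and their counts are set beside these shares with no test. The heat shock and unfolded protein response list had the largest share, with 8 of 15 genes, of which Hspd1 and Hspe1 share a region. Hsp90ab1, the gene of a cytosolic chaperone, had the widest of them at 2000 bp, with 135 knockout and 132 wild-type insertions. Atf4, the transcription factor of the integrated stress response, had 224 and 258 over 1400 bp.

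Regulators of chromatin and of daily rhythm came next. Of 23 chromatin regulators 9 had a broad region, among them Crebbp and Ep300, which encode histone acetyltransferases. Crebbp had 118 knockout and 156 wild-type insertions over 1650 bp, and Ep300 159 and 165 over 1400 bp. Ezh2 and Eed, which encode subunits of the Polycomb complex PRC2, were members too. Of 20 clock genes 7 had a broad region. Clock, the gene of the activator, had 246 knockout and 223 wild-type insertions over 1600 bp, and Nr1d2 is described above. Dbp, Cry1, Ciart, Tef and Per2 were the others, at 1000 to 1350 bp.

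Immediate early genes, which respond to activity within minutes, had a broad region in 6 of 24 cases. Egr1 had 288 knockout and 332 wild-type insertions over 1850 bp, and Klf9 182 and 173 over 1600 bp. Atf3, Ier5, Dusp1 and Jun completed the group, whereas Fos had a middle region of 850 bp. Of 31 ribosomal protein genes 5 had a broad region and 22 a middle one, between 600 and 1000 bp wide. Of 13 housekeeping genes 3 had a broad region, among them Eef1a1 at 1550 bp and Gapdh at 1050 bp.

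Among retinal cell types, rod genes had a broad region in 2 of 17 cases (11.8%), close to the 12.5% of all genes. Of these, Rom1, a partner of peripherin in disc rims, had 207 knockout and 237 wild-type insertions over 1150 bp. Of 12 cone genes only Gucy2e, which encodes a guanylate cyclase that rods use too, had a broad region, with 103 and 108. Of 10 photoreceptor transcription factors Mef2d and Crx did, and the rod factor Nrl had a narrow region of 400 bp with 43 knockout and 45 wild-type insertions.

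Other cell types followed. The ganglion cell list had 1 of 13 (Nefh, a neurofilament), the Müller glia list 1 of 15 (Car2), the glial lineage list 1 of 8 (Mbp) and the lens list 1 of 8 (Bfsp1). No broad region was found at 13 bipolar, 13 amacrine, 6 horizontal, 10 microglial, 9 vascular and 10 pigment epithelium genes. Developmental regulators of the homeobox and eye-field list had 2 of 33 (Crx and Zic5), and Notch and proneural genes 3 of 17 (Id4, Jag1 and Hey1). None of 16 autosomal GABA-A receptor subunit genes had a broad region. Of 13 genes of GABA synthesis, transport and the inhibitory scaffold, Slc12a2 and Nlgn2 had one. Slc12a2, the chloride importer NKCC1, had 199 knockout and 205 wild-type insertions.

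**Figure D4:**
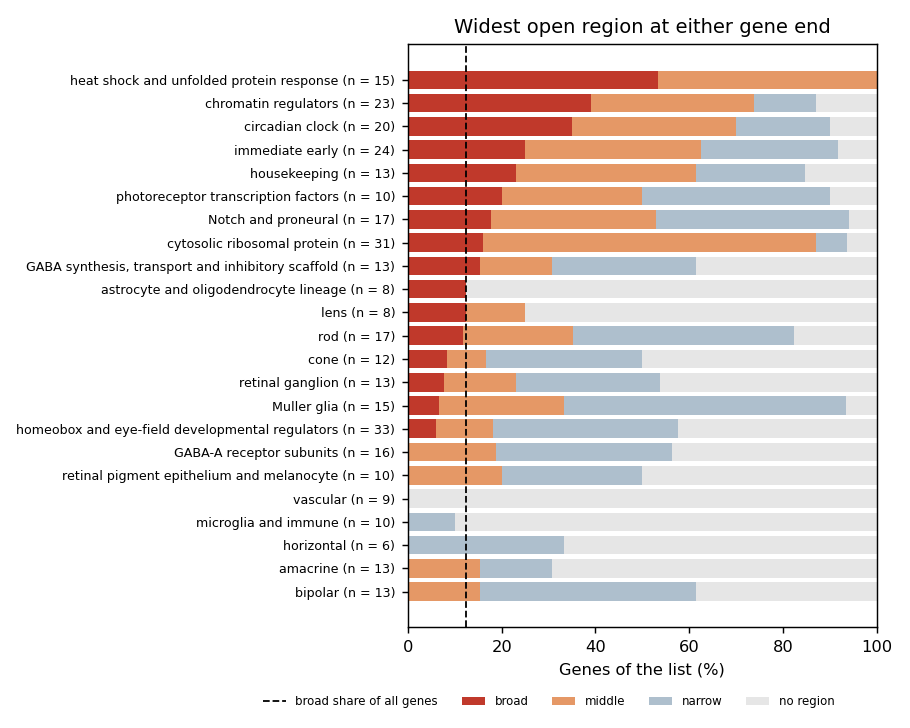
Share of the autosomal genes of each list (x axis, percent) whose widest open region within 1 kb of an end was broad, middle or narrow, with the dashed line at the 12.5% of all autosomal protein-coding genes with a broad region. The heat shock list, with 8 of 15, and the chromatin regulators, with 9 of 23, extend farthest past the line.

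Between the libraries the broad regions differed little. Each ratio is the log2 of knockout over wild-type insertions with 0.5 added to each count, relative to the autosomal insertions in all open regions. Summed over the 2143 broad regions the ratio was 0.04 (0.03 to 0.04), and over narrow regions it was -0.03 (-0.04 to -0.01). Scaled to all autosomal insertions these became -0.02 for broad and -0.09 for narrow regions, so the direction for broad regions depends on the scaling, which shifts every region by -0.06. The gap between the classes does not. Open regions of all kinds took 18.8% of knockout and 19.6% of wild-type autosomal insertions.

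The ratio was highest where the GC content of the promoter was highest. Among broad regions it was 0.01 (-0.01 to 0.03) at the lowest GC contents (limit 59%) and 0.02 (0.01 to 0.04) between 59% and 66.3%. Above that it was 0.05 (0.04 to 0.06). Regions of middle width gave -0.00, 0.02 and 0.05 in the same steps. Narrow regions gave -0.05 (-0.08 to -0.02), -0.02 (-0.06 to 0.02) and -0.01 (-0.06 to 0.04), with intervals that overlapped one another. With 20 to 39 insertions in the densest 200 bp, the ratio was 0.10 (0.04 to 0.16) for broad and -0.02 (-0.05 to 0.00) for narrow regions. With 40 to 59 it was 0.10 (0.06 to 0.13) for broad and -0.05 (-0.08 to -0.02) for narrow regions. With 60 to 79 it was 0.07 (0.04 to 0.09) for broad and -0.05 (-0.09 to -0.00) for narrow regions. The part of GC content in these ratios was not tested. The central 500 bp of broad regions had a ratio of 0.03 (0.02 to 0.04) and the flanks 0.05 (0.04 to 0.06).

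Of 2143 broad regions, 2100 held at least 100 insertions in both libraries together, and their ratios had an SD of 0.17. Of these, 7 (0.333%) were at least 1.5-fold higher in the knockout library, where 0.541% of all 8687 autosomal regions of that depth were. At least 1.5-fold lower were 2 (0.0952%), where 0.368% of all were. None reached 2-fold in either direction, nor did any of the 8687 (0.0%). For 1702 of the 2100 (81.0%) the whole interval lay within 1.5-fold either way, and for 2081 (99.1%) within 2-fold. Over all 8687 autosomal regions the share within 1.5-fold was 58.6%, and the broad regions, with more insertions each, had shorter intervals. The interval lay off 0 for 91 broad regions (4.33%), where it did for 3.56% of all 8687.

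**Figure D5:**
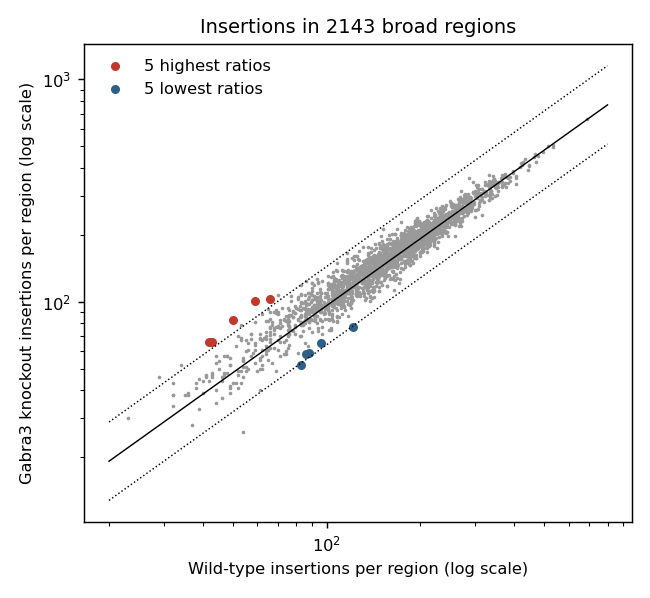
Knockout insertions (y axis, log scale) against wild-type insertions (x axis, log scale) of each broad region, with a solid line at equality after scaling, dotted lines 1.5-fold to either side, and the regions of highest and lowest ratio in red and blue. The points follow the solid line, and of the 2100 regions with at least 100 insertions 7 lie above the upper dotted line and 2 below the lower.

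Among regions with the same direction on both read strands, the highest ratios were at regions of modest depth. The region between Vti1a, which encodes a SNARE of vesicle fusion, and Zdhhc6, which encodes a palmitoyltransferase, held 101 knockout and 59 wild-type insertions (log2 ratio 0.83, 0.36 to 1.32). Pde4b, the gene of a cyclic AMP phosphodiesterase, had 83 and 50 (0.78, 0.27 to 1.33). Tln2, the gene of talin 2, had 103 knockout and 66 wild-type insertions (0.70, 0.24 to 1.17). Zbtb34 had 66 and 42, and Fam171a2 with Grn, the gene of progranulin, 66 and 43.

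The lowest ratios ran from -0.61 to -0.50, against 0.67 to 0.83 for the highest. Sqstm1, the gene of the autophagy receptor p62, held 52 knockout and 83 wild-type insertions (log2 ratio -0.61, -1.14 to -0.10). Kif1a, the gene of a kinesin that carries synaptic vesicle precursors, had 77 and 122 (-0.60, -1.04 to -0.18). Runx1t1, the gene of a corepressor, had 59 knockout and 88 wild-type insertions, Abi1 58 and 86, and Psmd13 with Sirt3 65 and 96. These regions were named for their ratios, so the values describe them and test nothing.

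Lists of genes showed ratios near 0. Summed over their broad regions, the heat shock list had -0.08 (-0.18 to 0.03), the chromatin regulators -0.03 (-0.14 to 0.08), the clock genes 0.02 (-0.09 to 0.12) and the immediate early genes 0.04 (-0.08 to 0.15). Rod genes had -0.02 (-0.18 to 0.13). Among the lists with a broad region, only Nefh, alone in the ganglion cell list, had an interval off 0, with 136 knockout and 105 wild-type insertions (0.43, 0.05 to 0.81). Which lists lie off 0 depends on the scaling. Scaling to all autosomal insertions shifts each ratio by -0.0615, and the lower limit for Nefh is 0.0543, so its interval then holds 0. The heat shock and ribosomal protein lists, with upper limits of 0.0272 and 0.0527, then lie below 0. By chromosome, 16.5 to 23.6% of the gene-end regions were broad, with a median of 19.4%.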

How the data were processed

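The submitters' processing notes name Trimmomatic 0.33, BWA and bedtools 2.23.0 with GRCm38. What each tool did, which BWA release was used and whether duplicates were filtered is not given in the sources used here. Each line of a file is a read, and the score column as deposited by the authors is its mapping quality, not normalized. Coordinates were used as deposited.

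Reads with a mapping quality of at least 10 were reduced to the 5′ end, shifted by 4 bp on the plus and -5 bp on the minus strand, counted once per position and strand in each library, and pooled. Overlapping 200 bp windows, 50 bp apart, were called at a Poisson p under 1e-05 against the genome mean or the mean of the 10000 bp around, whichever was higher, and merged within 150 bp. The caller was tested on simulated data. Gene ends and promoters came from RefSeq tables. Expected CpG is the product of the C and G counts over the window length. Named regions were the widest, the fullest, the highest and lowest ratios, those at the width limit and the widest of each list; others were named after their values were seen, and a few that the rule picks are not reported here. The members and lists were chosen with earlier results of these data known. With 1 library per genotype no test was made. Alternatives changed the scaling, mapping quality, threshold, merging, width and depth. Python 3.11.15, numpy 2.4.6, pandas 2.3.3, scipy 1.17.1 and matplotlib 3.10.9 were used.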

Additional observations from a re-analysis of the deposited data

How the results depend on the processing

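No paired analysis was possible because each genotype had 1 library, and for the same reason no replicate could be left out. Depth limits the widths: at 0.5 of the pooled depth 1015 regions were broad. The number was 1396 at a Poisson p under 1e-07, 6725 against the genome mean only, 4866 at a width of at least 800 bp and 171 at 1500 bp. Causes were not tested.

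The broad regions' share of insertions in the knockout library was 5.50% with all reads kept, 4.76% at mapping quality 30, 3.41% at p under 1e-07, 12.3% against the genome mean only, 4.56% and 5.06% merged within 50 and 300 bp, 8.86% and 0.545% at widths of 800 and 1500 bp, 4.65% within 500 bp of an end, 2.60% at 0.5 of the depth and 2.69% within 250 bp of the centre. In the wild-type library, in the same order, it was 5.64%, 4.82%, 3.48%, 12.5%, 4.63%, 5.15%, 9.03%, 0.557%, 4.72%, 2.66% and 2.75%.

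The summed log2 ratio of broad regions changed sign, to -0.0232, when scaled to all autosomal insertions. It was 0.0505 with all reads kept, 0.0314 at p under 1e-07, 0.0209 against the genome mean, 0.0301 at 1500 bp, 0.0307 at 0.5 of the depth and 0.0316 near the centre. For narrow regions it was -0.0892 with all autosomal insertions and changed sign, to 0.000955, against the genome mean. Regions 1.5-fold higher in the knockout library numbered 15 with all reads kept, 3 at p under 1e-07, 16 against the genome mean, 22 at 800 bp, 1 at 1500 bp and 11 near the centre. Those 1.5-fold lower numbered 1 with all reads kept, 1 at p under 1e-07, 12 against the genome mean, 1 merged within 50 bp, 1 within 300 bp, 11 at 800 bp and 0 at 1500 bp.

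The share with at least 2 gene ends was 26.9% at 1500 bp and 23.4% at 0.5 of the depth. For narrow regions it was 8.31% within 500 bp and 13.7% at 0.5 of the depth. Still broad in the knockout library alone were 51.9% with all reads kept, 39.3% at p under 1e-07, 70.1% against the genome mean, 60.4% at 800 bp, 27.5% at 1500 bp and 31.7% at 0.5 of the depth. In the wild-type library alone these were 47.5%, 34.5%, 71.4%, 57.4%, 25.1% and 29.7%, and 46.5% merged within 300 bp. Median insertions per kb were 345.0 with all reads kept, 301.2 at p under 1e-07, 169 against the genome mean, 280.0 and 263 merged within 50 and 300 bp, 260.0 at 800 bp, 162 at 0.5 of the depth and 348 near the centre. The median CpG ratio was 0.842 against the genome mean, 0.855 at 800 bp and 0.920 at 1500 bp. Among named regions whose interval lay off 0, no ratio changed sign. Of the named regions' widths under all alternatives, 588 stayed within 1.5 times the reported width and 62 did not.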

Other observations

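Broad regions also occurred away from gene ends, where 415 of 24876 autosomal open regions were at least 1000 bp wide. Of these, 189 held a RefSeq start of a protein-coding gene, which by this choice lay over 1 kb from the listed ends of the gene. The widest (chromosome 1, 24611501 to 24615450) spanned 3950 bp and held 5515 knockout and 5742 wild-type insertions, and 93.4% of its reads repeated a position and strand. The next (chromosome 2, 22588451 to 22590600) held 1717 knockout and 1772 wild-type insertions, with 93.3% repeats. A region of 1750 bp on chromosome 7 (6727351 to 6729100) held 278 knockout and 372 wild-type insertions (log2 ratio -0.36, -0.59 to -0.13).

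On the X chromosome, left out of the counts above, 36 of 354 gene-end regions were at least 1000 bp wide. Usp9x, the gene of a deubiquitinase, had the widest at 2150 bp, with 167 knockout and 172 wild-type insertions. Hcfc1, the gene of a transcriptional coregulator, had 178 and 189 over 1750 bp, and Tspan7 had 56 and 75 over 1550 bp.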
